A study of Mus musculus with 6 samples.

Results

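The Schlafen genes measured here are the mouse family members Slfn1, Slfn2, Slfn3, Slfn4, Slfn5, Slfn8 and Slfn9. They were taken as all probe sets whose gene symbol in the platform annotation includes one of these names, which gave 8 of 41345 probe sets. Of the 7 genes, 6 had a probe set listed with that gene alone. Slfn9 was measured only through a probe set listed with both Slfn9 and Slfn8, and a further probe set was listed with Slfn5 and its antisense transcript Slfn5os.

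RNA came from RAW 264.7 cells, a mouse macrophage-like line, on 6 arrays. All cells had been transfected, using Lipofectamine RNAiMAX, with 50 nM of an antisense oligonucleotide of the locked nucleic acid GapmeR type, which guides cleavage of its target by RNase H, and were collected after 48 h. In 3 samples (Control) the GapmeR was non-targeting, and in 3 samples (Mist-targeted) it was directed at Mist, a long noncoding RNA of macrophages. The labels name 1 GapmeR against Mist, list no untransfected cells among these samples and do not say whether replicates were grown separately. The spread behind each p is therefore that of these samples and may be of technical origin only. The question is which RNAs change in level with the GapmeR against Mist.

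Schlafen proteins occur in mammals as a fast-evolving family, and many of its genes are induced by type I interferon in macrophages and lymphocytes. The short group I proteins (Slfn1, Slfn2) and the intermediate group II proteins (Slfn3, Slfn4) are known for effects on the growth and quiescence of T cells and myeloid cells. The long group III proteins (Slfn5, Slfn8, Slfn9) add a helicase-like part, and relatives of this group in humans cleave tRNA and act at stressed replication forks.

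No Schlafen member passed the test across all probe sets, and the differences that exceeded the spread between arrays were all towards higher levels in the Mist-targeted samples. At an adjusted p under 0.05 (limma, Benjamini-Hochberg over all 41345 probe sets), 0 of the 8 probe sets were called, where 0.254% of all probe sets were. At an unadjusted p under 0.05 there were 4 of the 8, all higher in the Mist-targeted samples, where 4.77% of all probe sets were higher at that level and 9.7% differed in either direction. In the same 4 of 8 every Mist-targeted array lay above every Control array, which held for 8.2% of all probe sets. These were the probe sets of Slfn2, Slfn4 and Slfn5 and the one shared by Slfn9 and Slfn8. In no Schlafen probe set did all Mist-targeted arrays lie below all Control arrays. Over the 6 genes with a probe set of their own the median log2 difference (Mist-targeted minus Control) was 0.23, with 5 positive and 1 negative, and over all 22180 genes the median was 0.0069. Values are log2 expression, so a difference of 1 is a 2-fold change.

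**Figure D1:**
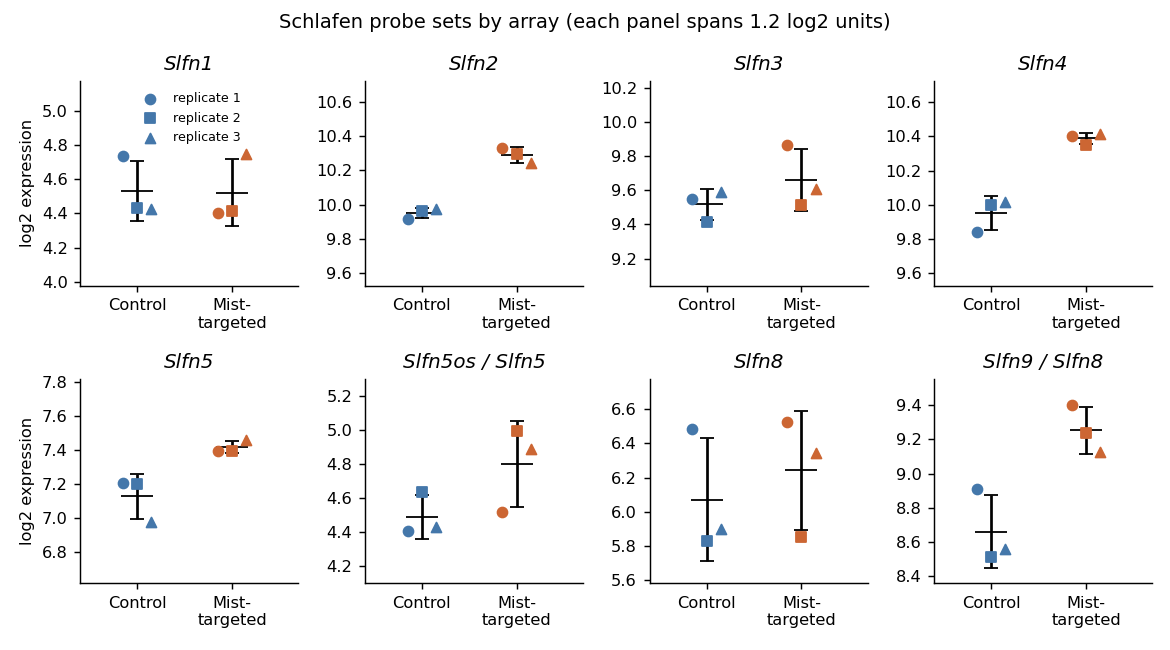
Log2 expression of the 8 Schlafen probe sets on each of the 6 arrays; points are arrays (circle, square and triangle for replicates 1, 2 and 3), the horizontal line is the group mean and the bar the SD (n = 3), and each panel covers the same span of log2 units at its own level. The Mist-targeted points lie above all Control points for Slfn2, Slfn4, Slfn5 and the probe set shared by Slfn9 and Slfn8, and overlap them in the other 4 panels.

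Group I and group II genes are introduced by a feature of their upstream sequence. In RefSeq windows from 250 bases before to 50 bases after the gene start (GRCm38.p6), all 7 members were matched. The longest stretch shared on the same strand by the windows of Slfn1, Slfn2, Slfn3 and Slfn4 was ACTTCCTGG, whose reverse complement CCAGGAAGT holds the GGAA core that transcription factors of the ETS family, such as the macrophage factor PU.1, recognise. It was found by comparing these 4 windows, so its presence in them is a description. On either strand it occurred in 0.843% of 32851 such windows, and in no window of Slfn5, Slfn8 or Slfn9. The shared stretch is in capitals, and each line gives the gene's own strand, 5′ to 3′.
Slfn1: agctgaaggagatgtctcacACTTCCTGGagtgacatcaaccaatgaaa
Slfn2: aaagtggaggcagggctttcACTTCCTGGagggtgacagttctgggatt
Slfn3: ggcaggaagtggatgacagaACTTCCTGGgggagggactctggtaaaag
Slfn4: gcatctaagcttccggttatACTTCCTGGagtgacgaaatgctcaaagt
They lie on the plus strand at chr11:83116726-83116774, chr11:83065037-83065085, chr11:83191268-83191316 and chr11:83175093-83175141. Relative to the annotated start the capitals begin at -74 in Slfn1, -55 in Slfn2, -42 in Slfn3 and -73 in Slfn4.

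Among the group I genes, Slfn2 differed between the groups beyond the spread of the arrays and Slfn1 did not. Slfn2, whose loss in mice leaves T cells and monocytes unable to hold quiescence, was at 9.91, 9.96 and 9.97 on the Control arrays and at 10.33, 10.30 and 10.24 on the Mist-targeted arrays. The 2 groups were well apart, with an SD of 0.031 in Control and 0.046 in Mist-targeted samples. The difference was 0.34 ± 0.078 (SE, n = 3 per group), or 1.27-fold, with a 95% interval of 0.16 to 0.52, and it missed the threshold (limma, adjusted p = 0.17). Slfn1, a gene first described for growth arrest of thymocytes, read 4.74, 4.43 and 4.43 in Control and 4.404, 4.416 and 4.749 in Mist-targeted samples. One array of each group was high and the others were low, and the groups overlapped. These values lie close to the arrays' medians of 4.468 to 4.497, and how far they exceed the arrays' background is unknown. The difference of Slfn1 was -0.0092 ± 0.13 (SE; 95% interval -0.32 to 0.30; limma, adjusted p = 0.99), so a difference of the size seen for Slfn2 lies just outside its interval. The change of Slfn2 exceeded that of Slfn1 by 0.35, and the arrays of the groups overlapped in this quantity (exact permutation test, two-sided, p = 0.3; adjusted p = 0.4 over 4 pairs of Schlafen probe sets). With 3 against 3 arrays this exact permutation test cannot go below p = 0.1, so for none of the 4 pairs could it reach 0.05, and it shows neither that 2 members differ nor that they do not.

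Of the group II genes, Slfn4 was the member with the larger difference. Slfn4, known for its regulation during the activation and differentiation of macrophages, was at 9.837, 9.996 and 10.017 in Control and at 10.40, 10.35 and 10.41 in Mist-targeted samples. All Mist-targeted arrays were above all Control arrays, and Control replicate 1 was the lowest. The difference was 0.44 ± 0.087 (SE), a 1.36-fold higher level with a 95% interval of 0.24 to 0.64 (limma, adjusted p = 0.12). Of all 22180 genes, 2.5% had a difference at least as large in either direction. Slfn3, studied mainly in T cells and in the differentiation of gut epithelium, read 9.55, 9.42 and 9.59 in Control and 9.87, 9.51 and 9.61 in Mist-targeted samples. Only Mist-targeted replicates 1 and 3 lay above all Control arrays, and the groups overlapped. The difference of Slfn3 was 0.14 ± 0.11 (SE; 95% interval -0.12 to 0.41; limma, adjusted p = 0.77). The change of Slfn4 exceeded that of Slfn3 by 0.29 (exact permutation test, two-sided, p = 0.2; adjusted p = 0.4 over the 4 pairs), with overlap between the arrays of the groups.

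The group III genes are introduced by another sequence feature, a motif of interferon-responsive promoters. The interferon-stimulated response element, searched on both strands as GAAA, any 2 bases and GAAA again, matched in the windows of Slfn5, Slfn8 and Slfn9 and in 3.44% of all windows. The motif is in capitals below; in Slfn8 and Slfn9 it is read as the reverse complement, TTTC, any 2 bases and TTTC.
Slfn5: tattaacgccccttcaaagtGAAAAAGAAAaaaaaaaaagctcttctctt
Slfn8: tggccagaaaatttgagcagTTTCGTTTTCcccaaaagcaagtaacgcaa
Slfn9: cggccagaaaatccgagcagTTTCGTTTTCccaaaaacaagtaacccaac
The first lies on the plus strand at chr11:82951927-82951976, and the other two on the minus strand at chr11:83020829-83020878 and chr11:82991846-82991895. The shorter core that interferon regulatory factors bind, AANNGAAA, overlaps this motif and matched in the windows of all 7 members and in 23.9% of all windows. The gamma-activated site of STAT factors, TTCNNNGAA, was in 0 of the 7 and in 8.30% of all windows. Counted by gene, as the members are, the shares were 3.99% for the response element, 26.7% for the shorter core and 9.55% for the gamma-activated site. The windows of Slfn8 and Slfn9 were 80.8% identical in a global alignment, and every other pair of members was at most 53.0% identical over these 300 bases around the start. A match is a run of letters in the window and was not tested as a binding site.

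Slfn5, an interferon-inducible member with a helicase-like part, was at 7.21, 7.20 and 6.98 in Control and at 7.39, 7.40 and 7.46 in Mist-targeted samples. The groups did not overlap, and Control replicate 3 was the low array. The difference was 0.29 ± 0.094 (SE), or 1.22-fold, with a 95% interval of 0.067 to 0.51 (limma, adjusted p = 0.36). The probe set listed with both Slfn5 and its antisense transcript Slfn5os read 4.41, 4.64 and 4.43 in Control and 4.52, 5.00 and 4.89 in Mist-targeted samples. Mist-targeted replicate 1 lay within the Control range there. Its difference was 0.31 ± 0.14 (SE; limma, adjusted p = 0.55), and how its signal divides between the 2 genes was not tested. This change and that of the probe set of Slfn5 alone were 0.022 apart (exact permutation test, two-sided, p = 1).

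The largest difference in the family was at the probe set shared by Slfn9 and Slfn8. It read 8.91, 8.51 and 8.56 in Control and 9.40, 9.24 and 9.13 in Mist-targeted samples. Every Mist-targeted array was above the highest Control array, which was replicate 1. The difference was 0.59 ± 0.13 (SE), or 1.51-fold, with a 95% interval of 0.29 to 0.90 (limma, adjusted p = 0.16). The probe set of Slfn8 alone, a gene expressed in T cell development, read 6.48, 5.83 and 5.90 in Control and 6.53, 5.85 and 6.34 in Mist-targeted samples. The groups overlapped almost fully, since each held 1 array near 6.5 and 1 near 5.8. Its difference was 0.17 ± 0.22 (SE; 95% interval -0.35 to 0.70; limma, adjusted p = 0.89). The change at the shared probe set exceeded that at Slfn8 alone by 0.42, without overlap of the arrays (exact permutation test, two-sided, p = 0.1, the smallest that 3 against 3 arrays can give; adjusted p = 0.4 over the 4 pairs). Because Slfn9 has no probe set of its own here, how much of the shared signal belongs to either gene cannot be told apart.

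**Figure D2:**
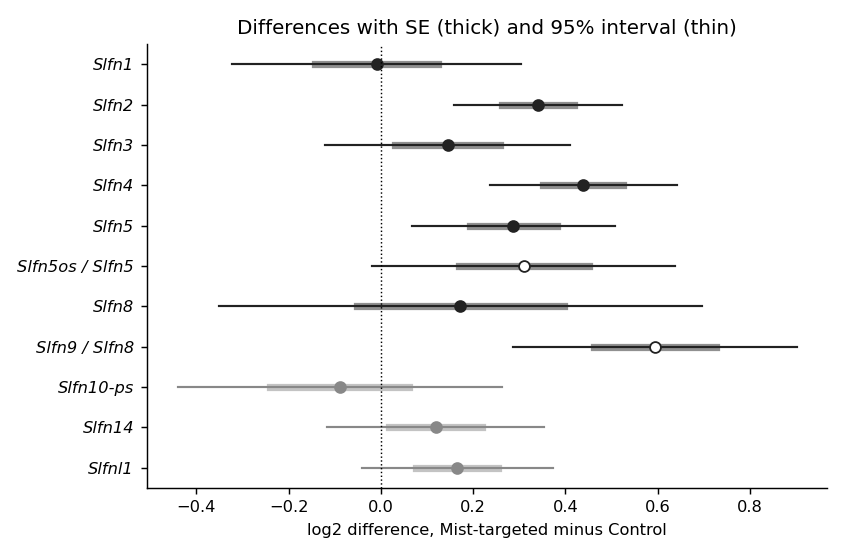
Log2 difference, Mist-targeted minus Control, for the 8 Schlafen probe sets (black) and 3 related genes (grey); thick bars are SE and thin bars 95% intervals of the limma fit (n = 3 per group), and open circles mark probe sets listed with several genes. The intervals of Slfn2, Slfn4, Slfn5 and the probe set of Slfn9 and Slfn8 lie above 0 before adjustment over all probe sets, and those of the other 7 include 0.

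Related genes outside the list of members showed no difference past the threshold. Slfn10-ps, a pseudogene between Slfn8 and Slfn2, read 6.70, 7.12 and 6.79 in Control and 6.81, 6.55 and 6.98 in Mist-targeted samples (difference -0.089 ± 0.15, SE; limma, adjusted p = 0.92). Slfn14, a group III gene known for its role in platelets and red cells, was low on all arrays, between 3.62 and 3.97, with a difference of 0.12 ± 0.10 (SE; limma, adjusted p = 0.79; 0.056 without Mist-targeted replicate 1 and 0.18 without Control replicate 2). Slfnl1, a Schlafen-like gene elsewhere in the genome, lay between 4.14 and 4.45 with a difference of 0.17 ± 0.089 (SE; limma, adjusted p = 0.63; 0.11 without Mist-targeted replicate 1). Slfnl1 was the 1 of the 3 in which all Mist-targeted arrays exceeded all Control arrays, which held for 8.2% of all probe sets. The gap between its groups was 0.053, and its values lay below the arrays' medians of 4.468 to 4.497.

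Across the arrays, the 6 members with their own probe set lay highest on Mist-targeted replicates 1 and 3. Their median deviation from the Control mean was 0.37, 0.13 and 0.28 on Mist-targeted replicates 1, 2 and 3, and 0.054, -0.042 and -0.041 on the Control arrays. On Mist-targeted replicates 1 and 3, 5 of the 6 exceeded the highest Control array, and on replicate 2 it was 3 of the 6. On replicate 3 the margin was narrow for Slfn1 (4.749 against 4.735) and Slfn3 (9.608 against 9.588). The share of all genes above the highest Control array was not counted for single arrays. The members differed in how much they rested on single arrays. Leaving out each array in turn, the difference of Slfn2 lay between 0.32 and 0.36, that of Slfn4 between 0.38 and 0.47 and that of the probe set of Slfn9 and Slfn8 between 0.52 and 0.72. The difference of Slfn8 was 0.38 without Control replicate 1, 0.37 without Mist-targeted replicate 2 and 0.029 without Mist-targeted replicate 1. Slfn3 moved in the same way, to 0.043 without Mist-targeted replicate 1 and 0.22 without Mist-targeted replicate 2. Slfn1 took either sign, from -0.12 without Mist-targeted replicate 3 to 0.092 without Control replicate 1.

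**Figure D3:**
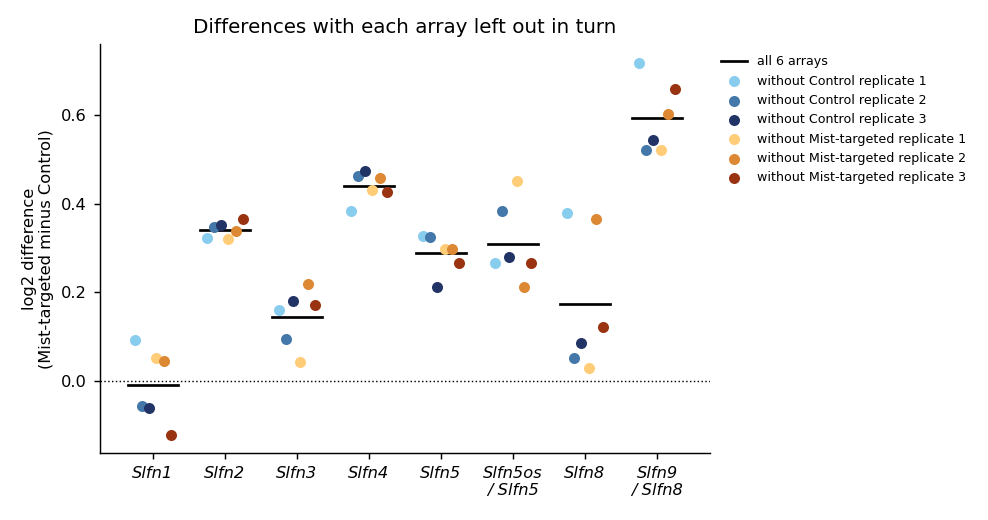
Log2 difference of each Schlafen probe set (Mist-targeted minus Control) with all 6 arrays (black line) and with each array left out (points, coloured by the array left out). The points of Slfn2 stay within 0.32 to 0.36, while those of Slfn8 range from 0.029 to 0.38 and those of Slfn1 lie on both sides of 0.

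The number of members called depended on the model. With a variance prior that follows the expression level and is robust to outlying variances, Slfn2 (limma, adjusted p = 0.049) and Slfn4 (adjusted p = 0.038) passed, where 0.283% of all probe sets were called higher. When only probe sets with a listed gene were tested, Slfn4 and the probe set of Slfn9 and Slfn8 passed (limma, adjusted p = 0.021 for each), where 1.09% were called higher. Over all alternatives the adjusted p lay between 0.049 and 0.41 for Slfn2, 0.021 and 0.31 for Slfn4, and 0.021 and 0.41 for the shared probe set.

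The Schlafen genes form a cluster on the chromosome, flanked by genes of other functions and, further away, by groups of CC chemokine genes. Next to the members among genes with their own probe set were the noncoding RNA genes Unc45bos, with a difference of -0.12 ± 0.10 (SE; limma, adjusted p = 0.79), and AI662270, with 0.18 ± 0.082 (SE; limma, adjusted p = 0.54). AI662270 lies between Slfn3 and Slfn14, and its Mist-targeted arrays were all above its Control arrays, with means of 10.01 and 9.83. In Ap2b1, the listed gene next after Slfn14 among those measured, all Mist-targeted arrays lay below all Control arrays (difference -0.21 ± 0.083, SE, limma adjusted p = 0.47). Of the listed genes around the cluster 26 of 27 were measured, of which 1 rose and 1 fell, where 0.254% of all probe sets were called. The difference was positive in 16 and negative in 10, with a median of 0.039. Those called were chemokine genes: the monocyte attractant Ccl2 rose by 1.60 ± 0.11 and Ccl5, a T cell attractant, fell by 1.59 on the log2 scale (SE 0.11; limma, adjusted p = 0.0053 for each). Both calls ended without Control replicate 2, and that of Ccl2 also ended without Mist-targeted replicate 3. Ccl5 therefore differed in the direction opposite to the Schlafen probe sets whose groups did not overlap.

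**Figure D4:**
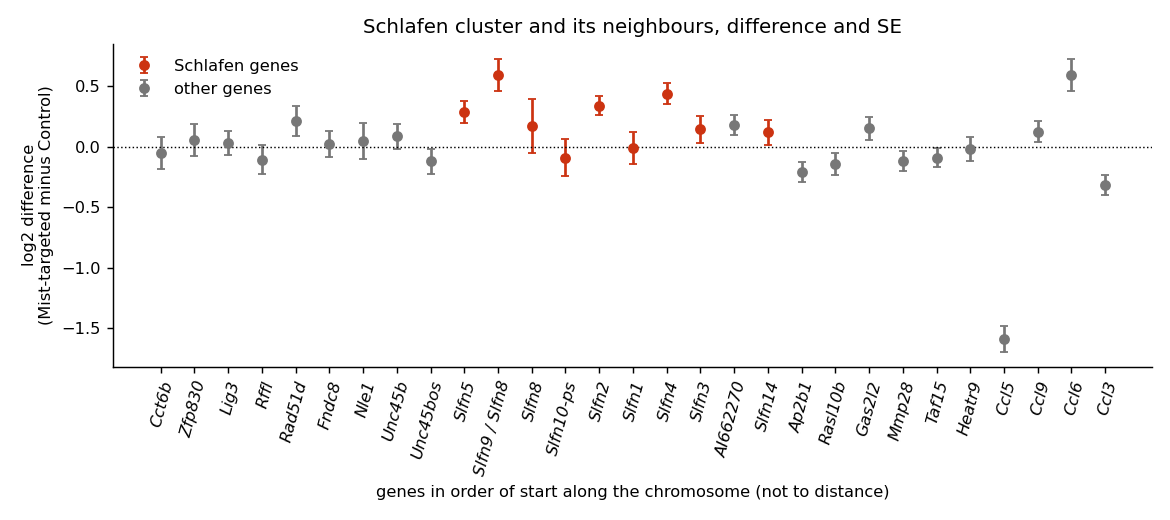
Log2 difference (Mist-targeted minus Control) with SE for the Schlafen genes (red) and neighbouring genes (grey) in their order of start position in RefSeq, evenly spaced and not to distance; symbols of the Gm, Rik, LOC and Mir form and genes without their own probe set are left out, and Slfn9 is drawn at the probe set it shares with Slfn8. Slfn5 to Slfn3 lie between -0.089 and 0.59, and Ccl5 lies at -1.59.

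Interferon signalling genes, which act upstream of many Schlafen genes, showed 1 called rise. Of 19 listed genes 17 were measured, of which 1 rose and 0 fell, where 0.254% of all probe sets were called. The difference was positive in 11 and negative in 6, with a median of 0.029. An unadjusted p under 0.05 (limma) was found in 4, where 9.7% of all probe sets had one in either direction. The gene that rose was Stat2, a subunit of the transcription factor that binds interferon-stimulated response elements, at 9.44, 9.39 and 9.49 in Control and 10.15, 10.09 and 10.11 in Mist-targeted samples. Its difference was 0.67 ± 0.079 (SE; limma, adjusted p = 0.031), and the call ended when any 1 of the 6 arrays was left out. The other genes given here fall outside the naming rule and were picked with their values in view. Irf7, which amplifies type I interferon production, had a difference of 0.62 ± 0.094 (SE; limma, adjusted p = 0.061). Irf1, a transcription factor induced by interferon, had one of 0.40 ± 0.090 (SE; limma, adjusted p = 0.16), and Usp18, a feedback inhibitor of the interferon receptor, one of 0.28 ± 0.081 (SE; limma, adjusted p = 0.27). In these 3 genes and in Stat2 all Mist-targeted arrays lay above all Control arrays, which held for 8.2% of all probe sets. In Tyk2 all Mist-targeted arrays lay below all Control arrays, with a difference of -0.25 ± 0.12 (SE, limma adjusted p = 0.56). Irf8 had a difference of -0.30 ± 0.13 (SE, limma adjusted p = 0.54), and its groups overlapped. The interferon receptor genes Ifnar1 and Ifnar2 had differences of 0.013 and 0.040, and Irf9, the partner of Stat2, one of -0.0020. The interferon gene Ifnb1 was at a low mean of 3.70 in Control and 3.68 in Mist-targeted samples. The part of interferon signalling in the Schlafen values was not tested.

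Genes of processes that Schlafen proteins act in gave 0 calls over all probe sets. Tested among listed probe sets only, 1 of the replication stress genes was called lower. Of the quiescence and growth genes, 1 was called higher and 2 lower in that fit. There, 275 of 25335 probe sets (1.09%) were called higher and 446 lower. Of 17 listed genes of tRNA cleavage and its control 12 were measured, and 0 were called with limma (1 at an unadjusted p under 0.05; median difference 0.099). Of all probe sets 9.7% had an unadjusted p under 0.05 in either direction, against which the counts of these lists are to be read. The tRNA methyltransferase gene Trmt2a had a difference of 0.26 ± 0.090 and the tRNA-processing gene Elac1 one of -0.31 ± 0.14 (SE). Of 15 replication stress genes, 0 were called with limma and 3 had an unadjusted p under 0.05 (median 0.093). The checkpoint kinase gene Atr had a difference of -0.46 ± 0.10, and the ubiquitin ligase scaffold gene Cul4a one of -0.33 ± 0.080 (SE). Of 15 genes of quiescence and growth, 0 were called with limma and 6 had an unadjusted p under 0.05 (median 0.0048). The cell cycle inhibitor gene Cdkn1b had a difference of -0.61 ± 0.11 (SE; limma, adjusted p = 0.084) and the quiescence factor gene Klf2 one of 0.59 ± 0.12 (SE; limma, adjusted p = 0.12).

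The genes whose 6 array values were most like the mean profile of the 6 members were Zswim7, Slc17a8, Rpp40, Ifi202b and Adap2. Their Pearson r with that profile was 0.997, 0.996, 0.996, 0.992 and 0.979, the highest among 1909 genes at or above the median level with an SD of at least 0.2; points are the 6 arrays of both groups, so the difference between groups enters r. Ifi202b, an interferon-inducible gene of the PYHIN family, had a difference of 0.68 ± 0.15 (SE; limma, adjusted p = 0.16). Rpp40, a subunit gene of the tRNA-processing enzyme RNase P, had one of 0.32 ± 0.10 (SE; limma, adjusted p = 0.33). None of the 5 was called, their adjusted p values lying between 0.16 and 0.38. Slc17a8, at 4.32 to 4.81, and Adap2, at 4.24 to 5.14, had values on both sides of the arrays' medians of 4.468 to 4.497. How far their values exceed the arrays' background is unknown. The mean profile averages centred values without scaling, so Slfn8, with the widest spread (SD 0.36 in Control, 0.35 in Mist-targeted samples), weighs most in it. The profile stood at -0.018 on Control replicate 1 and at -0.0016 on Mist-targeted replicate 2. In Slfn2 and Slfn4, by contrast, Control replicate 1 was the lowest array. Likeness to this profile is therefore not likeness to each member.

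The labelled cell type was checked on marker genes. Of 9 measured macrophage markers 0 lay below the median on all arrays, and 1 was called, where 0.254% of all probe sets were. It was the high-affinity IgG receptor gene Fcgr1, which rose by 1.01 ± 0.086 (SE, limma adjusted p = 0.012). The call was kept without Mist-targeted replicate 2 and ended when any other array was left out. Over the 9 markers the difference was positive in 5 and negative in 4, with a median of 0.013. An unadjusted p under 0.05 (limma) was found in 3 of them, where 9.7% of all probe sets had one. The log2 of the summed macrophage markers was 13.932 to 14.004 in Control and 13.885 to 13.980 in Mist-targeted samples. Markers below the median on all arrays were 5 of 8 for T and NK cells, 4 of 4 for B cells, 7 of 8 for neutrophils and 4 of 5 for fibroblasts. None of these 25 was called with limma, and 1 had an unadjusted p under 0.05, where 9.7% of all probe sets did. Their summed log2 levels overlapped between the groups, at 7.09 to 7.13 in Control and 6.97 to 7.17 in Mist-targeted samples for T and NK cells. In such bulk samples, fewer cells that express a gene and less of its RNA per cell cannot be told apart. Of the series as a whole, 53 probe sets rose and 52 fell, the median SE of a difference was 0.11, and 0 probe sets were named Mist, so the level of the target was not analysed here.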

How the data were processed

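Expression was measured on 6 arrays. The authors deposited log2 expression for each array (2.503 to 14.08). The submitters' processing notes name RMA and Partek; their versions, roles and settings are not given here. RMA with quantile normalization would draw arrays to a shared distribution and reduce a change common to most transcripts. Probe sets were named from the platform annotation (23521 with 1 symbol, 1814 with several, 16010 not listed). A gene was read at its own probe set with the highest mean.

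Differences, SE and 95% intervals come from limma 3.58.1 in R 4.3.3 (lmFit, eBayes, group as the only term, two-sided) on all 41345 probe sets, with Benjamini-Hochberg adjustment over all of them; the fit was tested on simulated data. Python 3.11.15, pandas 2.3.3, SciPy 1.17.1 (exact permutation tests), Biopython 1.88 (alignment; match 1, mismatch -1, gap opening -2, gap extension -0.5) and matplotlib 3.10.9 were used. Promoter sequences are from RefSeq, GRCm38.p6. The members and gene lists were chosen with earlier results of these data known. Named are all members, their relatives, the nearest genes, per list up to 4 called genes or the 2 with the smallest p, and the 5 genes most like the members' mean profile (symbols of the Gm, Rik or LOC form left out). Of the marker lists, those of non-macrophage cells were described by counts. Arrays of 1 group correlated at 0.988 to 0.991 and arrays of different groups at 0.986 to 0.989, and no 2 columns were identical.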

Additional observations from a re-analysis of the deposited data

How the results depend on the processing

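Of 0 members called among 6, eBayes with trend and robust gave 2, testing listed probe sets only gave 1, and the other alternatives gave 0. Among the 8 probe sets naming a member both of these gave 2. The others were the replicate block, leaving out the dimmest 40% of probe sets, a further quantile normalization, median centring, array weights, the mean of a gene's probe sets, and leaving out each array. The differences of Slfn2, Slfn3, Slfn4, Slfn5, Slfn8 and both shared probe sets stayed positive under the 9 of 14 alternatives that can move a difference; the other 5 change only its error or the adjustment. Slfn1 turned to 0.028 with array weights and ranged from -0.12 to 0.092 with single arrays left out; Slfn10-ps ranged from -0.19 to 0.035. The median difference of the members moved by less than the spread between arrays (SD 0.12). Genes called over the fixed lists numbered 4, and 11 among listed probe sets only, 0 with the replicate block and 0 to 3 with single arrays left out. The labels give both groups the numbers 1 to 3 and name no pairing. Same-numbered arrays deviated from their group means together with r of 0.20, 0.096 and 0.033. Control replicate 3 correlated better with Mist-targeted replicate 2 (r of 0.060), and every other array correlated best with its own number. Whether same-numbered arrays share more than a number was not tested. The replicate block lowered the calls over all probe sets from 105 to 0. It also leaves fewer degrees of freedom for the error, and how much of the loss of calls comes from this was not tested. All probe sets called were 287 with trend and robust, 161 without the dimmest, 721 among listed ones, and 2 to 40 with single arrays left out. With 3 arrays per group, differences well under the intervals given could not be detected.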
